A study of Mus musculus with 6 samples.

Results

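The data describe untreated mouse articular chondrocytes in primary culture, the 3 arrays of a 6-array series whose treatment label was Untreated. The other 3 arrays, of interleukin-1β treated cells, were normalized together with the untreated ones by the authors, so that they bear on every value, but their own signals were used in only 1 processing alternative. All 3 untreated samples were WT cells of the ICR strain, an outbred stock, taken from mice aged 5 days, and the labels number them as biological replicates 1, 2 and 3. Per the study's methods, cartilage of the femoral condyles and tibial plateaus was digested with collagenase, and the cells were kept as a monolayer in medium with 10% fetal bovine serum and antibiotics. RNA was taken at the 24 h harvest of the experiment and hybridised to a whole-transcript gene array. The labels give neither the sex of the mice nor which animals went into a replicate, and the methods name 4 replicates for each cell type where the labels list 3. The spread given below is therefore the spread between 3 RNA samples, for which no source used here names the litter or pool.

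Articular chondrocytes are the only resident cell type of the cartilage that covers the joint ends of bones. They secrete type II collagen fibrils with collagens IX and XI, and fill the mesh with aggrecan, a proteoglycan whose sulfated chains hold water. SOX9 is the transcription factor that sets up this program, with SOX5 and SOX6 as partners. At this age the ends of the long bones are still largely cartilage, and chondrocytes in monolayer are known to drift with time toward a fibroblast form.

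Each gene is given by its brightest probe set, as log2 signal after robust multiarray averaging (RMA), and 3 values in a row are those of replicates 1, 2 and 3. Of 41345 probe sets on the arrays, 23521 named 1 gene, which made 22180 genes. The mean signal of a gene ran from 1.27 to 12.99 with a median of 5.16. Background was set on each array as the 95th percentile of 1438 probe sets for olfactory, vomeronasal and taste receptors, and this level was 4.61, 4.72 and 4.60. Signals above it on all 3 arrays were found for 12571 genes, 56.7% of those measured, and 8262 genes were above it on no array. Each count of list members above background given below is to be read beside the 56.7% of all genes. The brightest 10% of the ranking held 2218 genes (10.0%) with means above 8.26, and the brightest 1% held 222 genes (1.00%) with means above 10.64. Probe sets differ in how well they bind their target, so ranks order signals and not RNA amounts. In an array of pooled cells, fewer cells of a type and less RNA per cell cannot be told apart.

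**Figure D1:**
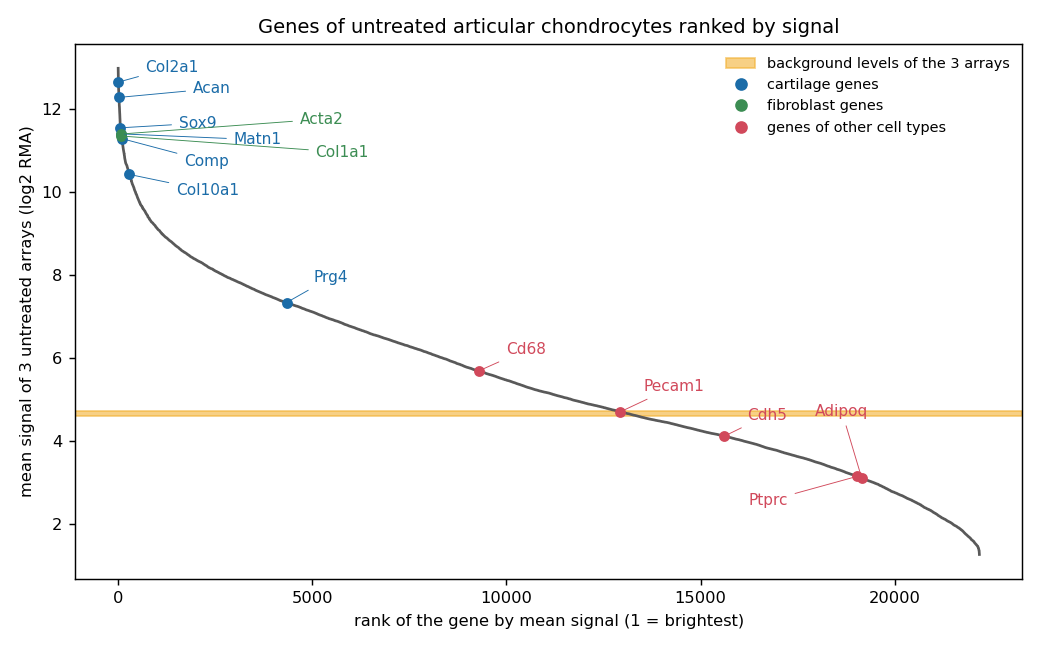
Genes ranked by mean log2 RMA signal of the 3 untreated arrays (22180 genes, brightest at rank 1), with the background levels of the arrays (4.60 to 4.72) as a band. Cartilage genes and the fibroblast genes Acta2 and Col1a1 crowd the left edge, Prg4 sits at 7.34, and Ptprc, Adipoq and Cdh5 lie under the band.

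Among the brightest 50 genes, mitochondrially encoded subunits of the respiratory chain took 9 places, cartilage matrix genes 7 and cytosolic ribosomal proteins 7. Rn7sk, a small nuclear RNA that restrains transcription elongation, led the ranking with 12.99, 13.01 and 12.96. ND4, a subunit of complex I encoded by mitochondrial DNA, came next with 12.96, 12.77 and 12.92. Fn1 (fibronectin, a matrix protein that cells attach to) was at rank 3 with 12.77, 12.66 and 12.71, and Col2a1 at rank 6. The translation factors Eif4a1 (12.70) and Eef1a1 (12.31), the glycolytic enzyme Gapdh (12.57), the matricellular protein Thbs1 (12.54) and the intermediate filament gene Vim (12.37) were also among the 20 brightest. Cartilage matrix genes held 16 of the brightest 100 places, ribosomal proteins 11, and the secretory pathway list 4. A receptor gene of the background set, Vmn1r233, stood at rank 49 with 11.81, 11.45 and 11.83, while its other probe set averaged 3.38, and only 1 further gene of the 1428 in that set averaged over 7.

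The chondrocyte part of the cell type label was checked on 5 markers, and all 5 lay in the brightest 1%. They were not chosen to tell articular from other cartilage, and that part of the label was not tested. Col2a1, the main fibril collagen of cartilage, read 12.68, 12.71 and 12.58 (mean 12.66 ± 0.065, SD, n = 3). Acan, the aggrecan core protein, read 12.44, 12.23 and 12.20 (12.29 ± 0.129). Sox9 read 11.57, 11.50 and 11.59 (11.55 ± 0.048) at rank 60, the brightest of the 55 measured genes in the list of chondrogenic and skeletal transcription factors. The 3 genes differed between arrays by 0.24 at most. Matn1 (matrilin 1, a filament-forming adaptor) read 11.58, 11.36 and 11.28 (11.41 ± 0.153) and Comp, a collagen-binding protein of the thrombospondin family, 11.47, 11.20 and 11.21 (11.29 ± 0.154). Acan, Matn1 and Comp were highest on replicate 1, and Col2a1 was lowest on replicate 3.

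RefSeq promoters (build GRCm38.p6, 250 bases before to 50 after a gene start, written 5′ to 3′ along the gene) were at hand for Acan and Matn1 of these 5 markers. They are shown with that of Col10a1, which has a TATA box on its own strand at 40 to 20 bases before the start. It was the brightest such gene among the 43 cartilage matrix genes, of 62 measured, that had a promoter at hand. Capitals mark 3 motifs searched on both strands. No match here overlapped one of a different motif, but 2 GC boxes of Acan share 2 bases. The TATA box was searched as the letters TATAAA. The GC box, known to bind SP1 and its relatives, was searched as the letters GGGCGG. The CCAAT box was searched by the 5 letters of its name.
Acan, chr7:79052976-79053275, plus strand: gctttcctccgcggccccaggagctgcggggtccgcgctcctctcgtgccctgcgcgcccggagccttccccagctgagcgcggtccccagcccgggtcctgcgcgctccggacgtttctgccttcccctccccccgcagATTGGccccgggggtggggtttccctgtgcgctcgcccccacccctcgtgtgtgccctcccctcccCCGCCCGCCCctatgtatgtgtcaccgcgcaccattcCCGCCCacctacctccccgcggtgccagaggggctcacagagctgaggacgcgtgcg
Matn1, chr4:130944135-130944434, plus strand: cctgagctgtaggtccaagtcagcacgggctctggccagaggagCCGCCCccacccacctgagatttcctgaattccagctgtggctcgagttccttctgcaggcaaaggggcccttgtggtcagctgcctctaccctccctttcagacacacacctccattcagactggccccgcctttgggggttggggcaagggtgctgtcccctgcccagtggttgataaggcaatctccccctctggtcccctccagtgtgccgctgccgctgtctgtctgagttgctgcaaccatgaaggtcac
Col10a1, chr10:34389731-34390030, plus strand: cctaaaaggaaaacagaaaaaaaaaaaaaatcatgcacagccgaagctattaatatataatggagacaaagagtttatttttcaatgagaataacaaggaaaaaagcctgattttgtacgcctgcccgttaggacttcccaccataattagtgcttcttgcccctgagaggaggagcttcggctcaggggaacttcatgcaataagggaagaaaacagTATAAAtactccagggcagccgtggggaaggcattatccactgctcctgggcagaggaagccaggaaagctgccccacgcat
The Acan window held 3 GC boxes and 1 CCAAT box, the Matn1 window 1 GC box, and the Col10a1 window only the TATA box. The matches in Acan and Matn1 were on the strand opposite the gene, so that their capitals show the reverse complement, and that in Col10a1 was on its own strand. Among promoters of genes above background on all 3 arrays, 62.0% of 12523 held a GC box and 7.42% a TATA box, against 22.5% and 19.9% of the 8088 promoters of measured genes that were not. In the cartilage matrix lists, 27 of 49 promoters (55.1%) held a GC box and 10 (20.4%) a TATA box. The shares were 35.7% and 13.6% of all 32851 promoters, and the 62.0% and 7.42% just given for genes above background. A TATA box in the 40 to 20 base window on the gene's own strand was found in 3 of these 49 (6.12%), belonging to Col10a1, Chad and Ecm1. It was found in 1.99% of all promoters and 1.37% of those of genes above background. The CCAAT box was found in 32.7% of the promoters of the matrix lists, 37.4% of all and 36.9% of those of genes above background. These are matches of letters and were not tested for binding.

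All 15 cartilage-related collagens were above background, and 12 were in the brightest 10%. Col11a1, which makes the core of the fibril with type II collagen, read 11.75, 11.52 and 11.63, and Col9a1, of the collagen that decorates the fibril surface, 11.43, 11.40 and 11.36. Their partner chains Col9a3 and Col11a2 averaged 10.28 and 9.87. Col10a1, the collagen of hypertrophic chondrocytes, read 10.42, 10.38 and 10.49. Col12a1, a fibril-associated collagen of loaded tissues, averaged 10.46, and Col6a1 of the network around the cell 10.04. The dimmest were Col16a1 (7.15), Col14a1 (5.31) and Col22a1 (5.07), a collagen of tissue junctions. Of the 15, 10 were highest on replicate 1 and 9 lowest on replicate 2, beside 39.3% and 41.5% of all genes above background.

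Proteoglycans and their link proteins were likewise all above background (18 of 18), with 12 in the brightest 10% and 9 in the brightest 1%. Bgn (biglycan) read 12.56, 12.49 and 12.51 at rank 12, ahead of Acan in signal, although its other probe set averaged 9.98. Dcn (decorin) read 11.66, 11.52 and 11.75. Bgn and Dcn are small leucine-rich proteoglycans that bind collagen fibrils. Epyc (epiphycan, a leucine-rich proteoglycan of growth cartilage) averaged 11.59 ± 0.130, Ogn (osteoglycin) 11.35 ± 0.087 and Fmod (fibromodulin) 11.24 ± 0.084. Hapln1, the link protein that locks aggrecan onto hyaluronan, read 11.45, 11.30 and 11.34. Omd (osteomodulin) had the widest range of the list, with 8.39, 8.07 and 8.51. Vcan, the large proteoglycan of mesenchyme before cartilage forms, averaged 6.37, and Hapln3 5.25, the lowest of the 18.

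Matrix glycoproteins were above background in 27 of 29 cases, with 10 in the brightest 1%. Ucma, a secreted protein of the upper growth plate, read 11.93, 11.83 and 11.95, and Cnmd (chondromodulin), which keeps vessels out of cartilage, 11.82, 11.80 and 11.91. Sparc, a collagen-binding glycoprotein, averaged 11.63. Thbs4 varied most among the members above background, with 5.71, 4.99 and 5.29. The 2 that missed the level were Crtac1, with 4.35, 4.54 and 4.29, and Cilp, with 3.69, 3.50 and 3.35. Both also stand in the list for the superficial zone and joint lining. The synovial lubricant gene Prg4, product of the joint surface cells, read 7.46, 7.19 and 7.37.

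The machinery that makes and exports collagen was bright as a group. All 23 measured collagen processing enzymes were above background and 19 were in the brightest 10%, with a median of 9.95. P4hb, the beta subunit of prolyl hydroxylase, read 11.26, 11.13 and 11.22, Plod2, a lysyl hydroxylase, 11.15, 10.86 and 11.07, and Crtap, a subunit of the prolyl 3-hydroxylase complex, 10.86, 10.89 and 10.87. The crosslinking enzymes Lox and Loxl3 averaged 10.75 and 10.81. The proteases that trim procollagen, Bmp1 (7.34), Adamts14 (6.49) and Adamts3 (5.09), were the dimmest. In the secretory pathway list, 35 of 35 were above background and 29 in the brightest 10%. The chaperone Hsp90b1 (11.49), the translocon subunits Ssr2 (11.36) and Sec61a1 (11.33), the retrieval receptor Kdelr2 (11.33) and the chaperone Calr (11.24) were the brightest, ahead of P4hb and of Canx (11.16). Of the 35, 25 were lowest on replicate 2, beside 41.5% of all genes above background.

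Glycosaminoglycan synthesis had 26 of 29 genes above background and 12 in the brightest 10%. Papss2, which makes the sulfate donor for chondroitin sulfate and whose loss gives a short skeleton, read 12.31, 12.24 and 12.34 at rank 21. Chst11, which sulfates chondroitin at carbon 4, averaged 10.81 ± 0.125. Ugdh and Ugp2, which supply UDP-glucuronate and UDP-glucose, averaged 10.54 and 10.31. The chain starter Xylt1 averaged 10.28 and the polymerase Chsy1 10.18. The sulfotransferases Chst7 (4.51, 4.44 and 4.55) and Chst3 (4.51, 4.57 and 4.28) and the hyaluronan synthase Has1 (4.38, 4.81 and 4.47) were not above background on all arrays.

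**Figure D2:**
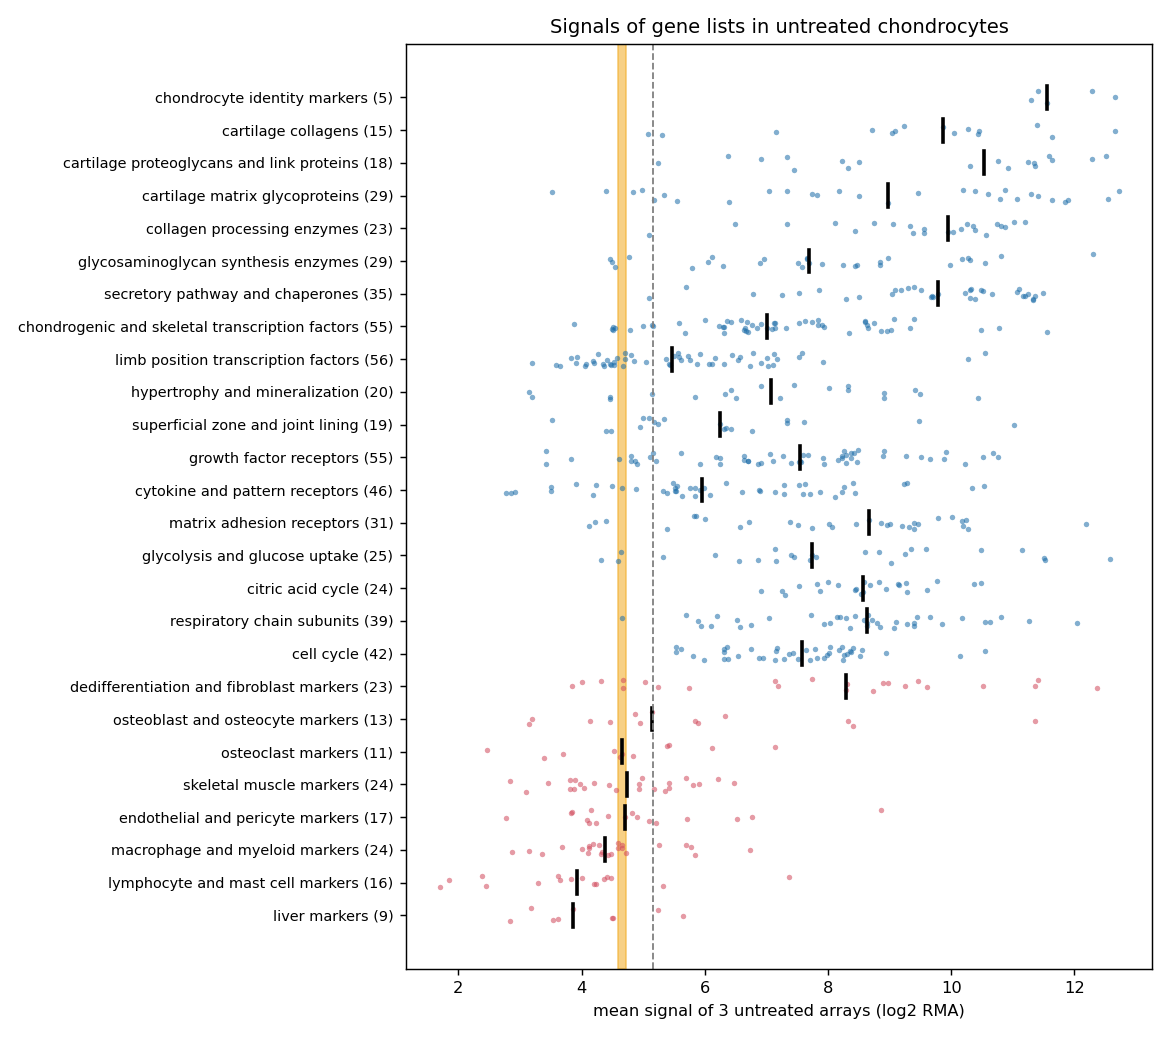
Mean log2 RMA signal of every measured member of 26 gene lists (number of members in brackets), with the list median as a black bar, the background levels as a band and the median of all genes (5.16) as a dashed line. Matrix, collagen processing and secretory lists have medians of 8.97 to 10.53, and lymphocyte and liver lists have medians under the band.

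Of 55 genes in the list of chondrogenic and skeletal transcription factors, which also holds cofactors such as the methyltransferase Carm1 and the ligand Gdf5, 50 were above background and 15 in the brightest 10%. Behind Sox9 came Atf4, a stress and amino acid response factor, with 10.92, 10.68 and 10.73, and Hif1a, the hypoxia factor that chondrocytes need to survive without vessels, with 10.59, 10.36 and 10.50. Foxc1 averaged 9.39 and Mef2a 9.32. The SOX9 partners Sox6 and Sox5 averaged 8.97 ± 0.086 and 7.53 ± 0.071. Sp7 (osterix), which directs osteoblasts and late hypertrophy, was near background and uneven, with 5.40, 5.26 and 4.76. Dlx6, Gli1, Pax1, Barx2 and Msx2 did not clear the level, with Msx2 lowest at 3.88.

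Position genes of the limb were read from a list of 56. Of these, 34 (60.7%) were above background, near the 56.7% of all genes, and 2 were in the brightest 10%. Of those, Islr (10.27) makes a leucine-rich repeat protein and not a transcription factor. Tbx15, a factor of limb mesenchyme, read 10.59, 10.50 and 10.56 and was the brightest. Factors of the hindlimb and forelimb were both present in signal. Pitx1 read 7.65, 7.53 and 7.55 and Tbx4 6.96, 6.87 and 6.90, the pair that marks the hindlimb, and Tbx5, known for its role in the forelimb, read 7.10, 7.11 and 7.12. Their ranges between arrays were 0.12 for Pitx1, 0.09 for Tbx4 and 0.02 for Tbx5. The stated source, the knee, is a hindlimb joint. Prrx1, of early limb mesenchyme, averaged 7.92, Shox2 7.18, and Lmx1b, of the dorsal limb, 6.16.

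Of the Hox clusters, 7 of 9 Hoxa, 3 of 10 Hoxb, 6 of 9 Hoxc and 2 of 8 Hoxd genes were above background, beside 56.7% of all genes. The clusters are small, and the difference between them was not tested. Among paralog groups 9 to 13, which pattern the limb along its length, all 3 measured Hoxa genes, 3 of 5 Hoxc genes and 1 of 5 Hoxd genes were above. Hoxc10, a gene of the hindlimb level, read 7.44, 7.53 and 7.62, and Hoxa10 7.03, 7.19 and 7.15. Hoxc8, Hoxc6, Hoxa9 and Hoxc9 averaged 7.03, 7.01, 6.57 and 6.54. Of the genes of the hand and foot, Hoxa13 read 4.78, 4.74 and 4.62, just above the level, and Hoxd13 4.21, 4.41 and 4.18, under it. Hoxd10 averaged 5.92, whereas Hoxd11 (4.53) and Hoxd9 (4.42) missed the level.

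Genes of hypertrophy and mineralization were above background in 16 of 20 cases. Besides Col10a1, the channel gene Panx3 read 9.54, 9.55 and 9.40 and the sphingomyelinase Smpd3 9.56, 9.33 and 9.36, both known from prehypertrophic and hypertrophic cells. Fgfr3, which slows growth plate division, averaged 8.91 and Vegfa, which draws vessels in, 8.91. The collagenase Mmp13 averaged 8.02 and Ihh, the hedgehog ligand of prehypertrophic cells, 6.51. Ibsp, a mineral-binding protein of bone and late cartilage, had the widest range of the list, at 6.53, 5.15 and 5.86. Of the genes known from bone cells, Bglap, Dmp1 and Phex averaged 4.46, 3.19 and 3.15, below the background level on every array. Sp7, Alpl and Ibsp of the same list were above it on every array. In the list for the superficial zone, 15 of 19 were above background, led by Igfbp5 (11.02) and Abi3bp (9.48), with the joint factors Gdf5 at 6.42 and Erg at 6.76.

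Receptors for growth factors were above background in 50 of 55 cases and in the brightest 10% in 18. Ddr2, a receptor tyrosine kinase for fibrillar collagen, read 10.77, 10.79 and 10.71, and Smo, the hedgehog signal transducer, 10.76, 10.69 and 10.59. Ryk and Bmpr2, receptors for WNT and BMP ligands, averaged 10.52 and 10.23, and Fgfrl1 and Igf2r 9.92 and 9.88. The type I BMP receptor Bmpr1b (3.42) and the kinase receptors Erbb4 (3.43) and Tek (3.82) were under the level. Fzd9, a WNT receptor, had the widest range of the members above background, with 7.80, 7.73 and 7.18, lowest on replicate 3. Of the 50, 31 were highest on replicate 1, beside 39.3% of all genes above background.

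Among 66 ligands and their binding proteins, 59 were above background. Igf2, a fetal growth factor, read 12.09, 12.13 and 12.01. Ccn1 and Ccn2, matricellular proteins that respond to TGF-β and to stretch, averaged 11.40 and 11.02, although the 2 probe sets of Ccn2 differed by 6.47. Igfbp5 and Igfbp7 averaged 11.02 and 10.57, and Bmp4 9.23. Inhba, a subunit of activin, varied most at 5.71, 6.25 and 5.40. Wnt16 (3.33), Gdf6 (4.02) and Fgf9 (4.08) were under the level.

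Adhesion receptors were above background in 28 of 31 cases, with 17 in the brightest 10%. The tetraspanin Cd81 read 11.92, 12.40 and 12.24 and was lowest on replicate 1. The heparan sulfate proteoglycans Sdc3 (10.28) and Sdc4 (10.24), the tetraspanin Cd63 (10.19), the integrin subunit Itgb1 (10.18 ± 0.061) and Sdc2 (10.01) followed. Itga2, a collagen-binding integrin subunit, ranged widest with 7.31, 7.90 and 7.33. Cd44, the hyaluronan receptor, averaged 5.82.

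Receptors for cytokines and microbial patterns were above background in 36 of 46 cases, with 7 in the brightest 10%. Il6st and Osmr, signalling chains for the interleukin-6 family, read 10.63, 10.50 and 10.47 and 10.43, 10.24 and 10.35. Tnfrsf11b (osteoprotegerin, a decoy for the osteoclast factor RANKL) averaged 9.29, Tnfrsf1a, a receptor for TNF, 9.23, and the adaptor Myd88 8.43. Il1r1, the signalling receptor for interleukin-1, read 8.17, 7.999 and 8.15, and its partner chain Il1rap averaged 5.84. Tlr7, Ccr1 and Il13ra2 were the dimmest, at 2.85, 2.77 and 2.92.

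Inflammatory products of the resting cells were above background in 23 of 35 cases (65.7%), beside 56.7% of all genes. Mif, a constitutive cytokine, read 10.91, 11.11 and 11.24, Lcn2 (lipocalin 2, an iron-sequestering acute-phase protein) 9.95, 9.72 and 9.98 and Csf1, the macrophage growth factor, 9.86, 9.88 and 9.78. Il1a read 3.10, 3.12 and 3.15 and Il1b 3.21, 3.03 and 3.16, both under the background level on every array. Il6 was also under it, with 2.79, 3.69 and 3.79. Saa3, a serum amyloid A gene, ranged widest of the members above background with 7.63, 6.87 and 8.25, and Ptgs2, the inducible cyclooxygenase, averaged 7.74.

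Proteases were above background in 34 of 45 cases (75.6%) and their inhibitors in 11 of 18 (61.1%), beside 56.7% of all genes. The lysosomal cathepsins Ctsd and Ctsb averaged 11.25 and 10.66, and Mmp14, a membrane collagenase, 9.78. Of the enzymes known to cut cartilage matrix, Mmp13 was given above, Mmp3 read 4.47, 4.34 and 4.59, below the level, Adamts5 6.96, 7.10 and 6.79 and Adamts4 5.17, 5.15 and 5.01. The inhibitor Timp3, which binds to matrix and blocks aggrecanases, read 12.10, 12.17 and 12.12 at rank 28. Timp2 and Timp1 averaged 10.69 and 10.13, Timp4 was under the level at 2.93, and the serpin Serpina3n averaged 11.36.

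Channels, G-protein-coupled and nuclear receptors were above background in 38 of 52 cases. Adgrg6, an adhesion receptor tied to spinal cartilage, averaged 10.06 ± 0.132, and Lpar4, a lysophosphatidate receptor, 9.74. The gap junction gene Gja1 averaged 9.48, and Trpv4, a calcium channel that opens with osmotic and mechanical load, 9.33, 9.08 and 9.26. The mechanosensitive channel Piezo1 averaged 9.16. The study is about estrogen-related receptors, orphan nuclear receptors that bind DNA without a known hormone. In the untreated cells Esrra read 6.58, 7.03 and 6.83 and Esrrg 4.77, 4.95 and 4.96, the second only just above the background levels, and Esrrb read 3.90, 3.85 and 3.99, under it.

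The metabolic lists were detected almost throughout. In glycolysis and glucose uptake 22 of 25 genes were above background, with Pgk1 at 11.51, Pkm at 11.50, Tpi1 at 11.15 and the glucose transporter Slc2a1 at 10.57, 10.57 and 10.33. Slc2a3 was under the level on every array, and Slc2a4 and Pdk4 were above it on 1 array each. All 24 citric acid cycle genes were above it, led by Mdh2 (10.48) and Idh3g (10.37), and their median SD between arrays was 0.055, against 0.112 over all genes above background. Nuclear-encoded respiratory chain subunits were above it in 38 of 39 cases, with Cox6a1 at 12.04 and Atp5b at 11.26. The exception, Cox7a1, averaged 4.65.

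Amino acid and serine synthesis was detected for 19 of 19 genes with a median SD of 0.058. Shmt2, the mitochondrial serine to glycine enzyme, read 10.98, 11.09 and 11.09, and the large neutral amino acid transporter pair Slc3a2 and Slc7a5 averaged 10.65 and 10.64. Fatty acid genes were above background in 25 of 30 cases, with the desaturase Scd1 at 10.30, 9.79 and 10.24 and the fatty acid importer Cd36 at 2.69, under the level. The cholesterol list, which also holds genes such as Ch25h that do not make cholesterol, was detected for 20 of 20. Its means lay between 4.96 for Ch25h and 8.71 for Fdft1. On replicate 1 Ch25h read 4.618, beside a level of 4.609. In metal handling, ferritin heavy chain Fth1 averaged 11.95 ± 0.023 and the zinc-binding metallothioneins Mt2 and Mt1 11.33 and 10.47. Antioxidant genes were above background in 23 of 23 cases, led by Cat (catalase) at 10.34.

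Genes of proliferation were detected throughout. All 42 cell cycle genes were above background and 10 were in the brightest 10%. Ccnd2 and Cdk4, which drive entry into the cycle, averaged 10.54 and 10.15, and Mki67, expressed in dividing cells, read 8.89, 8.99 and 8.96. The inhibitor Cdkn1a, a p53 target, averaged 10.55 ± 0.130 and the imprinted inhibitor Cdkn1c 9.35. Of the 42, 29 were highest on replicate 2 and 24 lowest on replicate 1, beside 33.7% and 29.9% of all genes above background. E2f2 ranged widest at 5.27, 5.81 and 5.52. Of 27 immediate early and stress genes above background, 15 were highest on replicate 2, beside the same 33.7%. They were led in signal by Dusp1 at 9.17, 9.74 and 9.46. Circadian clock genes were above background in 17 of 17 cases, with Clock at 9.39.

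Imprinted and fetal growth genes were above background in 17 of 19 cases, with 11 in the brightest 10% and 6 in the brightest 1%. Mest, expressed from the paternal copy, read 12.38, 12.35 and 12.50 at rank 16, and Peg3 12.25, 12.08 and 12.02. Zim1, Grb10 and Plagl1 averaged 11.20, 10.95 and 10.92. Meg3 averaged 6.05, and Lin28b, an RNA-binding protein of early growth, 3.27, under the level.

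MicroRNA genes are read on this array through their precursors, so a signal names a hairpin and not the mature strand in use. Of 21 cartilage-linked or comparison precursors measured, 8 were above background (38.1%), beside 128 of all 478 microRNA genes (26.8%). Mir140, known as the microRNA most tied to cartilage, read 5.67, 5.50 and 6.23 and was highest on replicate 3. Mir455, which lies within the collagen gene Col27a1, read 4.78, 5.04 and 4.94, Mir23b 6.20, 5.96 and 6.04 and Mir26a-1 5.70, 5.000 and 5.84. The dimmest were Mir29b-1 (1.36), one of the cartilage-linked precursors, and the muscle microRNAs Mir206 (1.62) and Mir1a-1 (1.77). Mature strands of 5 precursors above background, shown since these are the ones described here, are given from RefSeq (GRCm38.p6) with the seed, bases 2 to 8, in capitals.
mmu-miR-140-3p (from Mir140): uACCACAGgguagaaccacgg
mmu-miR-455-5p (from Mir455): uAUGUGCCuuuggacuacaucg
mmu-miR-455-3p (from Mir455): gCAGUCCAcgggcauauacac
mmu-miR-23b-5p (from Mir23b): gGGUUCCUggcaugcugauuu
mmu-miR-26a-5p (from Mir26a-1): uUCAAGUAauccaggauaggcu
mmu-miR-199a-5p (from Mir199a-1): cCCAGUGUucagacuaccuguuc
mmu-miR-199a-3p (from Mir199a-1): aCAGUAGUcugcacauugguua
These 7 strands have 7 different seeds. Mir199a-1 read 4.69, 5.12 and 4.77, barely above the background levels.

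Some fibroblast genes were among the brightest. Of 23 in the list, 18 were above background and 12 in the brightest 10%. Vim read 12.33, 12.48 and 12.31, Acta2, the smooth muscle actin of myofibroblasts, 11.17, 11.77 and 11.28, and Col1a1, the chief collagen of bone, tendon and fibroblasts, 11.46, 11.33 and 11.28. Col1a2 and Col3a1 averaged 10.51 ± 0.188 and 9.24 ± 0.172. Other genes of the list were dim, with Postn (periostin) at 4.64, 4.10 and 4.21, Fap at 4.88, 4.54 and 4.61, Dpp4 at 3.84 and the tendon gene Tnmd at 4.01, all short of the level on at least 1 array. Thy1 averaged 5.74 and Pdgfra 8.29. Their part in the chondrocyte values was not tested.

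Blood cell markers were mostly at background. For macrophages and other myeloid cells, 5 of 24 (20.8%) were above the level, beside 56.7% of all genes. They were Ly6c2 (6.74), Cx3cr1 (5.85), Laptm5 (5.78), Cd68 (5.69) and C1qa (5.26). The defining genes Ptprc, the pan-leukocyte antigen, and Adgre1, of mature macrophages, read 3.16, 3.44 and 2.85 and 3.301, 3.45 and 3.31, under the level on every array. Csf1r, the receptor for macrophage growth factor, read 4.44, 4.88 and 4.65. For lymphocytes and mast cells 2 of 16 were above it, Ighm (7.36, with 7 probe sets that differed by up to 5.56) and Nkg7 (5.33), whereas Cd3e averaged 4.24 and Cpa3 2.45. In the erythroid list only 4 of 12 genes had a probe set of their own, and Epor and Slc4a1 were above the level at 5.12 and 4.80.

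Vessel, osteoclast, muscle and osteoblast lists had medians of 4.71, 4.66, 4.74 and 5.14, beside 5.16 over all genes. Their counts above the level stand beside a share of 56.7% of all genes. Of 17 endothelial and pericyte markers 8 were above the level, and 4 of those stood in another list. Cspg4 averaged 8.86, and the endothelial genes Pecam1 (4.81, 4.75 and 4.57), Cdh5 (4.16, 4.31 and 3.88) and Emcn (2.65, 2.73 and 2.94) did not clear it on all arrays. The endothelial gene Kdr, with 4.67, 5.15 and 4.87, was above the level on every array. Osteoclast markers were above it in 5 of 11, with Acp5 at 6.13 and Ctsk at 5.41, but Calcr at 3.39 and Atp6v0d2 at 2.46. Osteoblast and osteocyte markers were above it in 9 of 13, of which 5 stood in another list, with Alpl at 6.56, 6.17 and 6.26 and the osteocyte gene Sost at 4.87. Skeletal muscle markers were above it in 12 of 24, none over 6.48 (Tnnt3), with Myog ranging widest at 5.25, 6.19 and 5.62, and Myh3 and Mylpf averaged 2.84 and 3.46.

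Among the remaining lists, 4 of 8 adipocyte, 8 of 12 synovial lining and tendon, 9 of 12 epithelial, 8 of 13 neural and 2 of 9 liver markers were above the level. The share of all genes above it was 56.7%. Adipoq and Epcam, the dimmest of the adipocyte and epithelial lists, averaged 3.11 and 3.66, and the brightest members of these lists 6.49 and 6.09. Alb averaged 3.53 and the neuronal gene Snap25 4.01. S100b, used as a glial marker and also made by chondrocytes, read 9.02, 8.72 and 9.01. Over all 12 lists of other cell types, fibroblasts aside, 74 of 163 genes were above background, beside 56.7% of all genes. Of those 74, 22 stood in another list. The medians of these 163 genes were 4.57, 4.74 and 4.63 on the arrays, with the highest on replicate 2, where the background level was also highest.

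**Figure D3:**
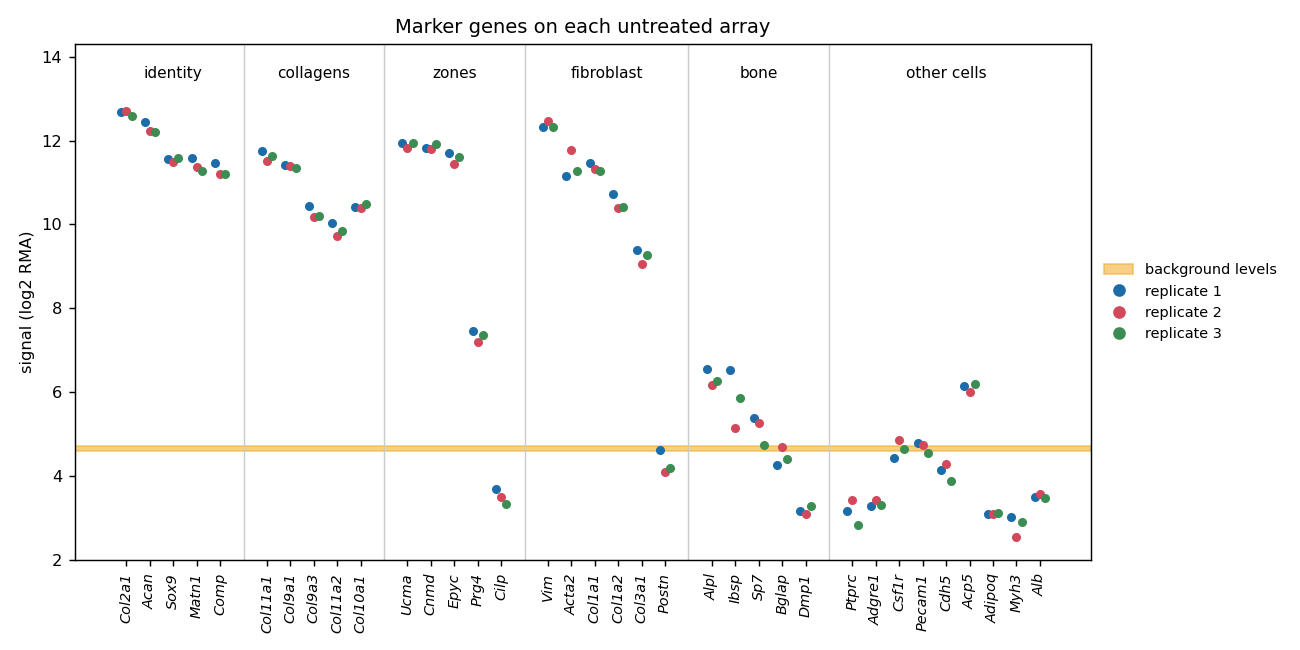
Log2 RMA signal of marker genes on each untreated array (replicates 1 to 3 in colour), with the background levels (4.60 to 4.72) as a band. Identity and collagen genes lie between 9.71 (Col11a2) and 12.71 (Col2a1), Postn and Cilp lie at or under the band, and Ibsp is spread over 1.38.

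The replicates were close in signal. The correlation between arrays over the 22180 genes was 0.9911 for replicates 1 and 2, 0.9947 for 1 and 3 and 0.9924 for 2 and 3, a description across genes, which are not independent. The median SD was 0.112 for genes above background and 0.163 for the rest. It fell with signal, being 0.142 at signals of 5 to 6 and 0.075 at 11 or more. A range under 0.25 was seen in 59.8% of genes above background and one over 0.5 in 6.57%. Only 19 of 12571 (0.151%) ranged over more than 1.

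**Figure D4:**
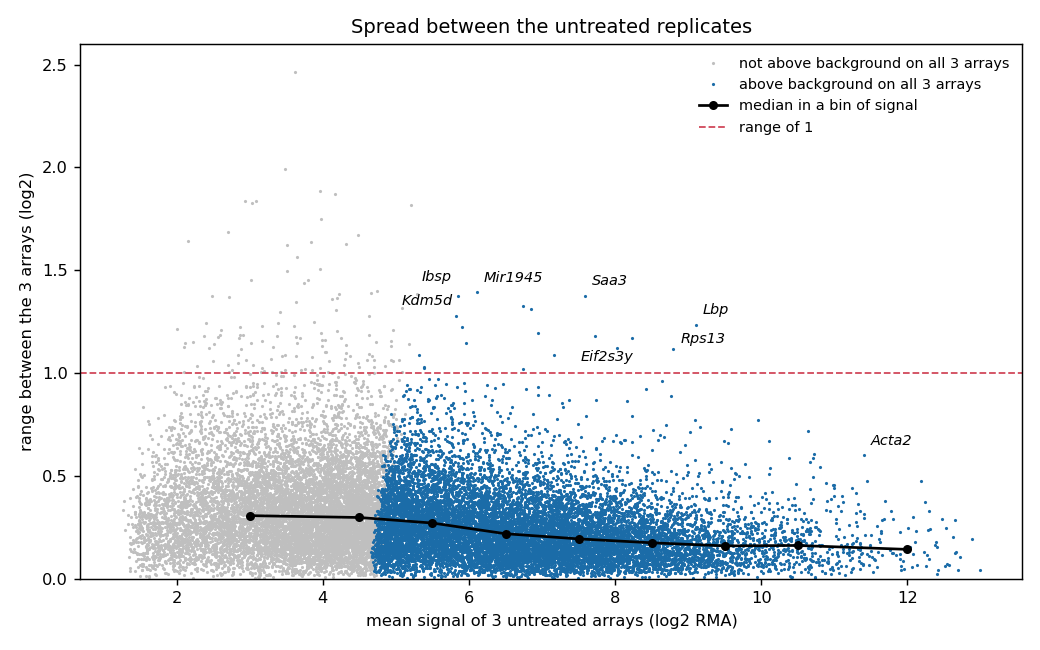
Range between the 3 untreated arrays (log2) against mean log2 RMA signal for 22180 genes, with the median in bins of signal and a dashed line at a range of 1. The bin medians fall to 0.143 at the bright end, and the 19 genes above background over the line include Ibsp, Saa3, Lbp, Kdm5d and Eif2s3y.

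Replicate 2 stood apart from the other arrays more than they did from each other. Differences over 0.5 were found in 555 genes above background between replicates 1 and 2 (4.41%), in 400 between 2 and 3 (3.18%) and in 127 between 1 and 3 (1.01%). Of all genes above background, 39.3% were highest on replicate 1, 33.7% on replicate 2 and 27.0% on replicate 3, and 29.9%, 41.5% and 28.6% were lowest on replicates 1, 2 and 3. Against these shares, 8 of the 10 mitochondrially encoded genes were lowest on replicate 2, for example ND2 with 12.35, 12.01 and 12.38 and COX1 with 12.76, 12.47 and 12.71. Beside the list counts already given for collagens, cell cycle and secretory genes, dim genes moved too, since the median deviation of genes not above background was -0.04, 0.07 and -0.03 on replicates 1, 2 and 3.

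Genes of many kinds were among those with the widest ranges. Saa3 and Lbp, acute-phase proteins that bind lipid or bacterial lipopolysaccharide, were lowest on replicate 2 and highest on replicate 3, with 9.25, 8.41 and 9.65 for Lbp. Steap4, a metalloreductase that rises with inflammation, had 5.54, 4.78 and 5.82 in the same order. Cd14, a co-receptor for lipopolysaccharide, was lowest on replicate 1 with 4.73, 5.42 and 5.82. The ribosomal protein gene Rps13 (9.18, 8.06 and 9.16) and the predicted genes Gm6625 (8.57, 7.47 and 8.64), Gm10335 and Gm5481 were all lowest on replicate 2. The skin gene Lce3c (6.11, 7.43 and 6.67), of the cornified envelope, and Mir1945 (5.82, 6.95 and 5.55) were instead highest there. Dock10 (6.49, 5.27 and 5.96), a regulator of small GTPases, and the zinc-finger gene Zfp935 (6.39, 5.24 and 6.26) were again lowest on replicate 2.

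Sex-linked genes of both kinds were above background in every replicate. Xist, made from the inactive X chromosome of females, read 8.61, 9.26 and 8.997. The Y-linked genes Eif2s3y and Kdm5d read 8.16, 6.98 and 8.04 and 6.42, 5.14 and 5.90, and Uty 6.71, 5.996 and 6.45, all above background on every array. All 3 Y-linked genes were lowest and Xist highest on replicate 2. A further Y-linked gene, Usp9y, averaged 2.82, under the level. The part of these values in the other differences of replicate 2 was not tested.

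Contractile genes were highest on replicate 2. Acta2 was given above, and Tagln and Myl9, which bind or drive actin in smooth muscle, read 8.11, 8.70 and 8.14 and 8.20, 8.68 and 8.38. Of 12 contractile genes gathered after these values were seen, 11 were above background. Of those, 10 were highest on replicate 2, beside 33.7% of all genes above background. The 10 included Cnn1 (6.64), Tpm1 (7.90) and Actg2 (6.34). The exception was Lmod1 with 5.44, 5.13 and 5.05.

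**Figure D5:**
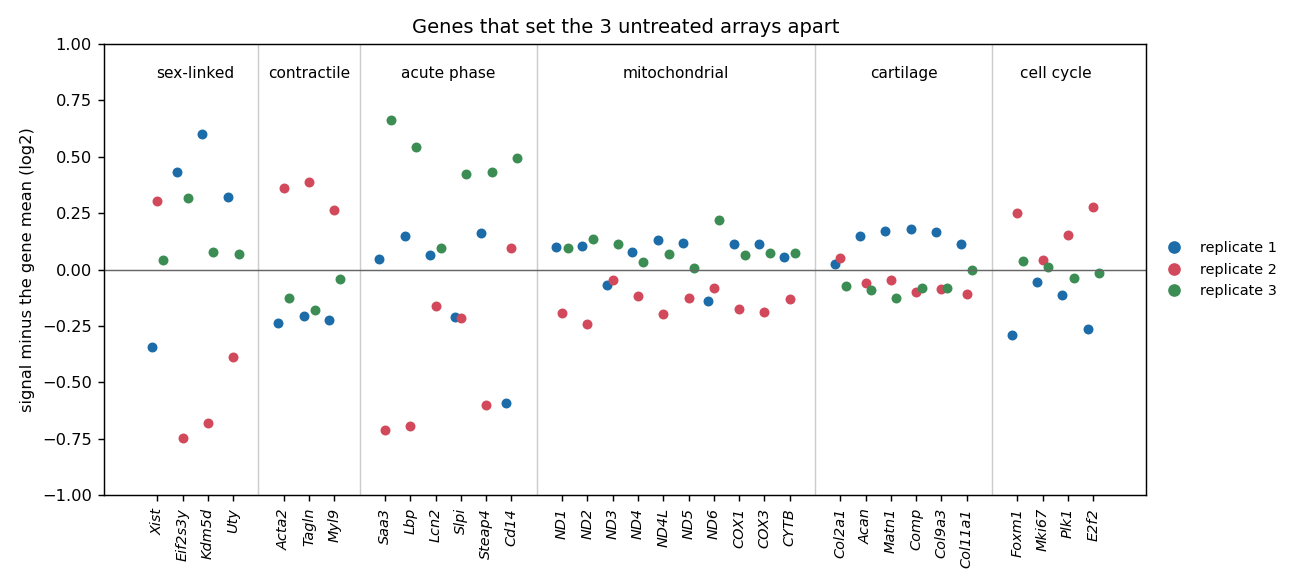
Log2 RMA signal minus the gene's mean over the 3 untreated arrays, with each replicate in colour, for all 10 mitochondrially encoded genes measured and for genes of 5 other kinds picked with their values known. Replicate 2 is lowest for Eif2s3y, Kdm5d, Uty and 8 of the 10 mitochondrial genes (not ND3 and ND6), highest for Acta2, Tagln and Myl9, and replicate 3 is highest for the acute-phase genes shown. Hp (haptoglobin), an acute-phase gene that is not shown, read 5.32, 5.03 and 4.75 and was lowest on replicate 3.

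Where a gene had several probe sets, the choice among them moved its level. Of 1082 such genes, 752 had probe sets more than 1 apart, and the median gap was 1.72. Among genes named above this held for Eif4a1 (5.58), Eef1a1 (5.12), Hif1a (5.23), Slc2a1 (5.29) and Gapdh (3.10), whose dimmer probe set would place it lower in the ranking. Probe sets without a listed gene were not ranked. List members with no probe set of their own numbered 142 of 1362, among them Runx2, Msx1, Fbn1, Spp1, Pthlh and the globins, and they were not analysed here.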

How the data were processed

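The values used are the deposited log2 signals of a whole-transcript mouse gene array, which the authors made by RMA (background correction, quantile normalization and median polish), per the labels and methods, for the treated and untreated arrays of this data set together. RMA keeps no spot flags or scan dates, so depth does not apply, and the number of arrays limits the precision. Probe sets were named through the platform annotation, and 23328 of 23521 with 1 symbol matched RefSeq (GRCm38.p6). Of the rest, 1820 named several genes and 16004 were unlisted, and neither were used. Each gene took the probe set with the highest mean over the 3 untreated arrays. Background, ranks, SD and range were computed in Python 3.11.15 with pandas 2.3.3 and numpy 2.4.6, and the code recovered known spreads on simulated data. No groups were compared and no test was run. Members of the 50 gene lists were chosen with earlier results of these data known. Text names the 5 markers, the 30 brightest genes, up to 6 brightest, 3 dimmest and the widest member of each list, the 20 widest ranges, and any measured member of the limb, sex-linked and other-cell lists. Genes outside this rule, named after their values were seen, included Actg2, Adamts4, Adamts5, Canx, Carm1, Cd44, Chad, Cnn1, Col11a2, Col6a1, Dlx6, Ecm1, Esrra, Esrrg, Gdf5, Gli1, Hp, Ihh, Il1r1, Il1rap, Lmod1, Mir199a-1, Mmp13, Mmp3, Piezo1, Sox5, Sox6, Tpm1 and Vmn1r233. Members of the fibroblast list beyond its brightest, dimmest and widest were also named with their values known. Alternatives covered leaving out each replicate, the background level, the probe set rule, the scaling and the genes kept.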

Additional observations from a re-analysis of the deposited data

Results flagged for a closer look

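Of the 16004 probe sets that the annotation used here lists with no gene, 5199 (32.5%) were above the background level on all 3 untreated arrays, and 40 of them averaged over 12, the brightest at 13.01. They were drawn out because they carry signal and stand in no list or ranking of the report. Samples far from their group could not be sought by a fixed rule among 3 arrays.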

How the results depend on the processing

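No paired analysis was possible because the results come from no test and only 1 group was described. The count of genes above background was 12571 and stayed within 1.5 times of it under all 11 alternatives, between 8666 with the 99th percentile of the receptor probe sets and 13514 with their median plus 3 median absolute deviations. Leaving out 1 replicate gave 12724 to 12838. The count of genes above background ranging over 1 was 19, and it was 2 to 12 with 1 replicate left out (2 without replicate 2, 10 without replicate 3 and 12 without replicate 1), 11 with the 99th percentile and 12 with predicted genes left out. The median SD of 0.112 was 0.076 to 0.108 with 1 replicate left out, the lowest being without replicate 2. Falls of these 2 results with a replicate left out are in part built in. A range over 2 arrays cannot exceed that over the same 3, and an SD of 2 values tends to be lower than one of 3. Among the 50 gene lists, no count of members above background moved by over 1.5 times when a replicate was left out, whereas 17 fell that far with the 99th percentile. The median percentile of a list moved by at most 3.08 with a replicate left out and by up to 11.8 with the mean of all probe sets of a gene. Of the 100 brightest genes, 96 to 98 were shared when a replicate was left out, 81 with the mean of all probe sets and 85 among protein-coding genes. With 3 arrays the SD of any 1 gene is itself imprecise, and signals near background carry little order.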
